A study of Mus musculus with 6 samples.

Results

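The antioxidant defence and metallothionein genes are described here in neonatal pancreatic islet cells of the mouse. The group was fixed as 10 genes by symbol: *Mt1*, *Mt2*, *Sod1*, *Sod2*, *Cat*, *Gpx1*, *Gpx3*, *Prdx4*, *Hmox1* and *Nqo1*. All 10 were found on the array, with 11 of its 56605 probes, among 45616 genes and other features. They were compared between cells with high and low *Wnt4*, to ask whether the defence against oxidative damage differs between the Wnt4hi and Wnt4low cells of the newborn islet.

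Islets came from *Wnt4eGFPCre; mTmG* pups at P1, the first day after birth. The methods describe 1 kind of pup for both populations, with an eGFPCre fusion knocked into *Wnt4* and the mTmG reporter, in which every cell has red membrane tdTomato until Cre switches it to membrane GFP. A legend of the study instead marks the Wnt4low side as *Wnt4eGFPCre Tg-*, so whether all Wnt4low cells carried the Cre allele is not settled by the sources used here. The label is permanent, so GFP marks a cell whose lineage has used *Wnt4* at some time, not only one that uses it now. Dispersed islet cells were sorted by FACS into GFPpositive (Wnt4hi) and GFPnegative (Wnt4low) cells without a gate for β-cells, and RNA from pools of 3 or 4 pups was hybridised to 1-color Cy5 microarrays. There were 3 arrays for Wnt4hi (replicates 2, 3 and 4) and 3 for Wnt4low (replicates 1, 3 and 4), and values below are given in that order.

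*Wnt4* itself was at a normalized log2 intensity of 10.83 ± 0.34 (SD, n = 3) in Wnt4hi and 9.76 ± 0.40 (SD, n = 3) in Wnt4low, a log2 fold change of 1.08 (unadjusted p = 0.00694, adjusted p = 0.210). Markers of other cell types also differed between the fractions. Markers counted as higher or lower had an unadjusted limma p below 0.05. The same held for 5.06% (higher) and 5.53% (lower) of all features. By the sign of the difference alone, 12 of 12 endothelial, 12 of 12 mesenchymal, 11 of 12 leukocyte and 6 of 8 erythroid markers were lower. By sign 12 of 13 β-cell and 7 of 7 α-cell markers were higher. The summed linear intensity of 12 endothelial markers was 5207 to 7688 in Wnt4hi and 40016 to 73272 in Wnt4low, with 11 of 12 lower. Of 12 mesenchymal and pericyte markers 8 were lower (sums 38350 to 81102 against 97662 to 129652), of 12 macrophage and leukocyte markers 6 were lower (sums 11236 to 18768 against 22844 to 26985), and of 8 erythroid markers 3 were lower (sums 3850 to 7131 against 6040 to 15722). The sum of 13 β-cell markers was 341547 to 351417 in Wnt4hi and 194793 to 303262 in Wnt4low (9 higher), and that of 7 α-cell markers 81327 to 123556 and 13807 to 67506 (4 higher). The sum of 9 ductal markers was likewise larger in Wnt4hi, 32425 to 38757 against 15448 to 23499, with 3 higher (*Krt8*, *Krt18* and *Epcam*) and 1 lower (*Spp1*, log2 fold change -2.16). By sign 6 of the 9 were higher and 3 lower, the latter *Spp1*, *Krt19* (-0.48) and *Cftr* (-0.62). The larger sum is therefore not shared by all ductal markers. The number of these markers that were well above background on 0 Wnt4hi arrays was 2 for endothelial (*Tek*, *Tie1*), 1 for leukocyte (*Mrc1*), 2 for erythroid (*Hbb-bt*, *Epb42*), 1 for ductal (*Cftr*) and 0 for mesenchymal, β-cell and α-cell markers. In sorted bulk RNA, fewer cells of a type and less RNA per cell cannot be told apart.

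Reactive oxygen is removed in steps. Superoxide dismutases turn superoxide into hydrogen peroxide, which catalase, glutathione peroxidases and peroxiredoxins then destroy, the latter groups at the cost of glutathione or thioredoxin. Metallothioneins are small cysteine-rich proteins that bind zinc and copper and are induced by metals through MTF1, while *Hmox1* and *Nqo1* are textbook targets of the oxidant-sensing factor NRF2. Islet β-cells are known for low levels of catalase and of the cytosolic glutathione peroxidase, and for a large pool of zinc stored with insulin.

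The promoters of both metallothionein genes are shown because metal response elements near the start site are the known feature of this family, and those of *Gpx3* and *Nqo1* because these genes had the largest differences among the called ones. Promoter sequences were taken from a set of RefSeq promoters (GRCm38.p6) that held 9 of the 10 genes. *Hmox1* was not in the set used here. Each run reads 5′ to 3′ on the strand of the gene from 250 bases before the transcription start site, and capitals mark the motif matches.
Mt1, chr8:94178839-94179118, plus strand: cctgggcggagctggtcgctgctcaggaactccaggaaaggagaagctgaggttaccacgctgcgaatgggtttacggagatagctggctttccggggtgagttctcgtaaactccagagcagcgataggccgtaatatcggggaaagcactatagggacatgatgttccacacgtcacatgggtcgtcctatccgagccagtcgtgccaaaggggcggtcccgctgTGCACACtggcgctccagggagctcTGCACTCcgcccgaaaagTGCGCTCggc
Mt2, chr8:94172368-94172647, plus strand: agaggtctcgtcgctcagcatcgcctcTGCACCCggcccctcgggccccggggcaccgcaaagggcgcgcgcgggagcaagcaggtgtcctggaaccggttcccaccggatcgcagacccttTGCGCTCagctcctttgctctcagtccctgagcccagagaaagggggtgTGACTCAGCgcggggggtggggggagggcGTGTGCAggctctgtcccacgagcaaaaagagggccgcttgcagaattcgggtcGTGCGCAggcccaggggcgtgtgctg
Gpx3, chr11:54902604-54902883, plus strand: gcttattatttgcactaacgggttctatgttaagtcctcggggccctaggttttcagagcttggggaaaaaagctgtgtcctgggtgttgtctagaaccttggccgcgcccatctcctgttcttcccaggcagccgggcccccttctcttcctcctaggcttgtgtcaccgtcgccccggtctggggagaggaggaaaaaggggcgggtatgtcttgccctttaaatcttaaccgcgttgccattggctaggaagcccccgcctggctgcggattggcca
Nqo1, chr8:107403176-107403455, minus strand: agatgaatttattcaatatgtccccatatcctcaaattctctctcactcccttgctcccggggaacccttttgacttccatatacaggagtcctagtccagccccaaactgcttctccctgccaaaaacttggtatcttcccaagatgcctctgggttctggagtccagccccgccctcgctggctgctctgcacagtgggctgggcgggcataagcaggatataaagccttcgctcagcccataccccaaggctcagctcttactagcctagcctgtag

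Searched on both strands were the core of the metal response element, as TGCACNC or TGCGCNC, and the core of the antioxidant response element, TGACNNNGC, in windows of 300 bases. Of 32851 RefSeq promoters, 25.7% held either metal core and 12.4% the antioxidant core. Positions are counted from the start site of the RefSeq entry and would shift with any other start site. The *Mt1* window held 3 metal cores, at -23, 3 and 21 from that site, and the *Mt2* window 4, at -223, -128, -50 and 5, the last 2 of them on the other strand. *Mt2* also held 1 antioxidant core, at -79. *Sod1* held 1 antioxidant core at -56 and *Prdx4* 1 metal core at -58, and no match overlapped another. The windows of *Sod2*, *Cat*, *Gpx1*, *Gpx3* and *Nqo1* held 0 matches, which says only that these letters are not in these 300 bases.

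**Figure D1:**
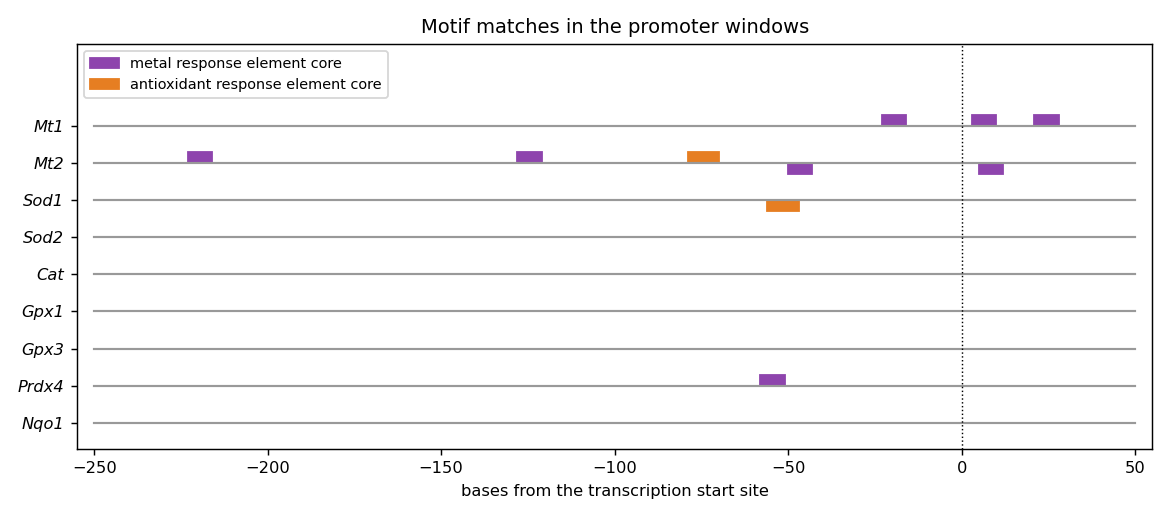
Positions of the motif matches in the promoter windows of 9 genes. The horizontal axis gives bases from the transcription start site (dotted line), each grey line is 1 window of 300 bases, and boxes above or below it are matches on the strand of the gene or on the other strand. The metal cores lie in *Mt1* (3), *Mt2* (4) and *Prdx4* (1), and the antioxidant cores in *Mt2* and *Sod1* (1 each).

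At the threshold of the study's methods (unadjusted p below 0.05) 4 of the 10 genes differed: *Sod1*, *Gpx3* and *Nqo1* were higher in Wnt4hi and *Cat* was lower. Among all 45616 features 10.6% passed this threshold, 5.06% higher and 5.53% lower in Wnt4hi. After Benjamini-Hochberg adjustment over all features, 0 of the 10 passed with limma and 0 with the methods' t-test, against 0.441% of all features with limma. In the 20 alternative settings none of the 10 passed either, and the lowest adjusted p was that of *Nqo1*, 0.100. The arrays of both populations did not overlap for the same 4 genes, and for 16.1% of all features. The median log2 fold change (Wnt4hi minus Wnt4low) was 0.33 over the 10 genes and 0.07 over all features. With 10 genes chosen by name, these counts describe the genes and are no test of the group. All 10 were well above background on all 6 arrays, against 28882 of the 45616 features. With a filter on dim probes 4 of the 10 passed the unadjusted threshold, beside 12.8% of the features in that fit.

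**Figure D2:**
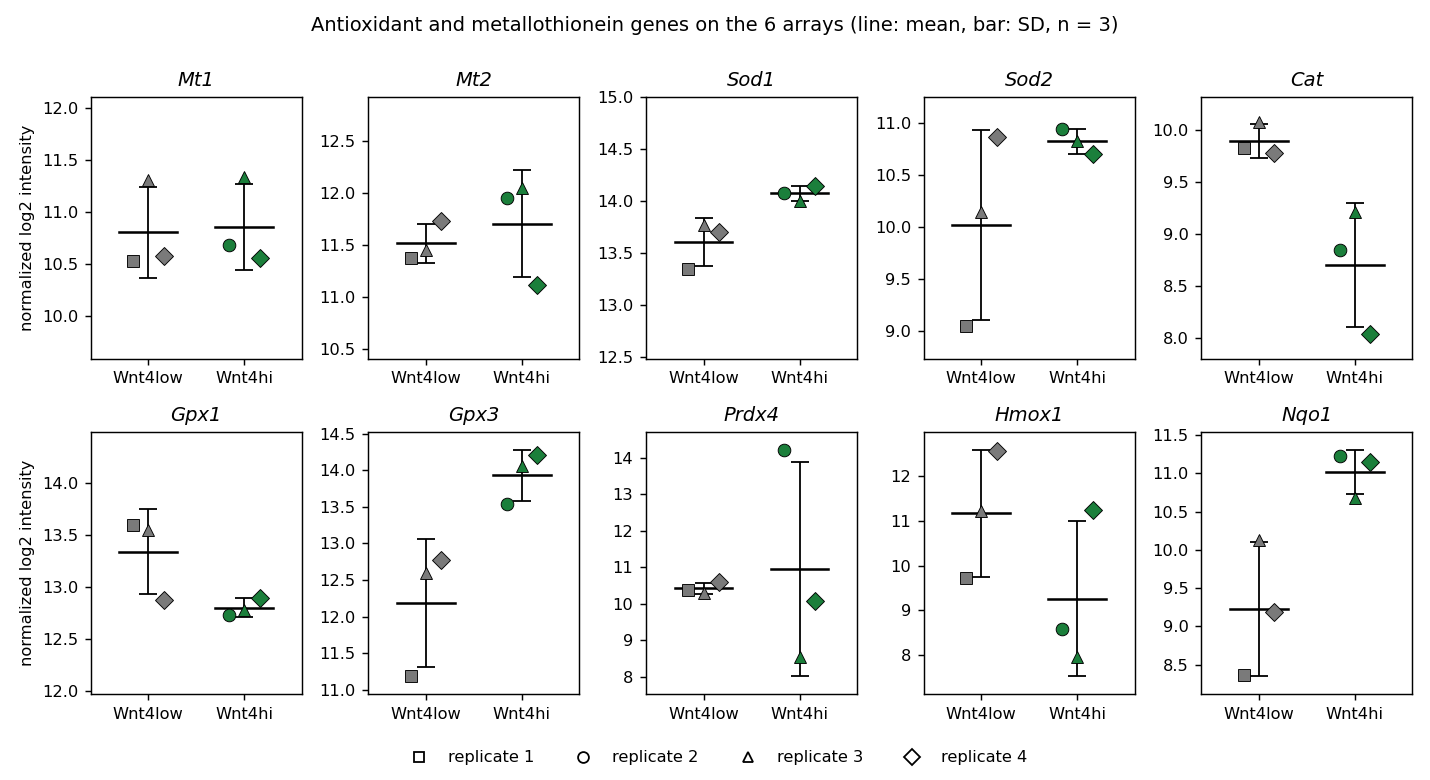
Normalized log2 intensity of the 10 genes on each array, with Wnt4low in grey and Wnt4hi in green, and the shape giving the replicate number. Horizontal lines are means and bars SD (n = 3), and each panel has its own range. The populations lie apart for *Sod1*, *Cat*, *Gpx3* and *Nqo1*, 1 Wnt4hi array stands far above the others for *Prdx4*, and *Hmox1* varies widely within both populations.

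The metallothioneins did not pass the test. *Mt1* was at log2 intensities of 10.68, 11.33 and 10.56 in Wnt4hi and 10.53, 11.31 and 10.57 in Wnt4low. The populations overlapped fully, and replicate 3 was the highest array of each. The log2 fold change was 0.05 (95% interval -0.68 to 0.79, unadjusted p = 0.866, adjusted p = 0.974). A second probe of *Mt1*, the only other probe in the group, gave -0.23 (95% interval -1.16 to 0.70). *Mt2*, the neighbouring gene with the same metal-binding role, read 11.95, 12.05 and 11.12 in Wnt4hi and 11.37, 11.45 and 11.73 in Wnt4low. Its lowest array was Wnt4hi replicate 4, below all Wnt4low arrays, while the other Wnt4hi arrays were the highest of all. The log2 fold change was 0.19 (95% interval -0.49 to 0.87, unadjusted p = 0.522, adjusted p = 0.881), and 0.48 (unadjusted p = 0.0389, adjusted p = 0.473) without Wnt4hi replicate 4.

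Both superoxide dismutases had higher means in Wnt4hi, and *Sod1* passed the unadjusted threshold. *Sod1* encodes the copper-zinc enzyme of the cytosol. It measured 14.08, 14.00 and 14.15 in Wnt4hi and 13.35, 13.77 and 13.70 in Wnt4low, without overlap. The 1.38-fold difference (log2 fold change 0.47, SE 0.16, unadjusted p = 0.0250, adjusted p = 0.362) was the smallest of the 4 called. It missed the unadjusted threshold without Wnt4hi replicate 2 (0.47, adjusted p = 0.518), Wnt4hi replicate 4 (0.43, adjusted p = 0.542) or Wnt4low replicate 1 (0.34, adjusted p = 0.591). It also missed it with the processed intensity of the scanner software (0.25), with median centring (0.32), and in the authors' table of normalized values (0.17, adjusted p = 0.871). The same held with the replicate number as a fixed term (0.34, adjusted p = 0.872). Its call thus depended on single arrays, on the scaling and on the model.

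The mitochondrial manganese enzyme, *Sod2*, gave 10.93, 10.83 and 10.70 in Wnt4hi and 9.04, 10.14 and 10.86 in Wnt4low. Wnt4hi arrays lay close together, whereas Wnt4low ranged widely and its replicate 4 reached the level of Wnt4hi. The log2 fold change of 0.80 (95% interval -0.28 to 1.88) had an unadjusted p of 0.120 and an adjusted p of 0.631. Without Wnt4low replicate 4 it was 1.23 (unadjusted p = 0.0169, adjusted p = 0.373), and without Wnt4low replicate 1 it was 0.32.

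Among the enzymes that remove peroxide, *Cat* and *Gpx3* moved in opposite directions. *Cat*, the peroxisomal catalase, was at 8.85, 9.21 and 8.04 in Wnt4hi and at 9.82, 10.08 and 9.78 in Wnt4low. Every Wnt4hi array was below every Wnt4low array. *Cat* was 2.29-fold lower in Wnt4hi (log2 fold change -1.20, SE 0.31, unadjusted p = 0.00795, adjusted p = 0.222), and it passed the unadjusted threshold in all 20 alternative settings, with values from -1.45 to -0.87.

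*Gpx3* encodes the secreted, selenium-containing glutathione peroxidase of plasma. It read 13.54, 14.06 and 14.21 in Wnt4hi and 11.18, 12.60 and 12.78 in Wnt4low. All Wnt4hi arrays were higher, and Wnt4low replicate 1 was far below the rest. The mean was 3.36-fold higher in Wnt4hi (log2 fold change 1.75, SE 0.45, unadjusted p = 0.00790, adjusted p = 0.222). Without Wnt4low replicate 1 the log2 fold change was 1.25, and it passed the unadjusted threshold in all 20 settings.

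The cytosolic glutathione peroxidase *Gpx1* gave 12.73, 12.78 and 12.90 in Wnt4hi and 13.60, 13.55 and 12.87 in Wnt4low. Wnt4low replicates 1 and 3 were higher than all Wnt4hi arrays, and Wnt4low replicate 4 lay within them. The log2 fold change was -0.54 (95% interval -1.08 to 0.01, unadjusted p = 0.0524, adjusted p = 0.480). It was -0.77 without Wnt4low replicate 4 (unadjusted p = 0.00265, adjusted p = 0.193). With the processed intensity it also passed the unadjusted threshold (-0.71, adjusted p = 0.410). *Gpx1* and *Cat* both had the lower mean in the fraction with the lower endothelial, leukocyte and mesenchymal marker sums, while the erythroid sums overlapped, and the part of those cells in either value was not tested.

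*Prdx4*, the peroxiredoxin of the endoplasmic reticulum, cannot be given a direction. It measured 14.22, 8.55 and 10.06 in Wnt4hi and 10.38, 10.29 and 10.58 in Wnt4low. Wnt4hi replicate 2 was 3.64 above the next array on the log2 scale, while the other Wnt4hi arrays were the lowest of the 6. In scanner units the same spot had an intensity of 18699 on that array, against 450 and 818.5 on the other Wnt4hi arrays and 1220 to 1527 on the Wnt4low arrays, and it carried no outlier flag. On that array 25 features lay more than 3 log2 units from all other arrays, against 0 to 9 on the others. The log2 fold change was 0.52 (95% interval -2.82 to 3.86, unadjusted p = 0.716, adjusted p = 0.939) with all arrays and -1.11 (unadjusted p = 0.0528, adjusted p = 0.494) without Wnt4hi replicate 2. With the replicate number as a fixed term it was -1.13 and passed the unadjusted threshold (unadjusted p = 0.0265, adjusted p = 0.353).

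Of the classic targets of NRF2, *Nqo1* had the largest difference of the 4 called genes. *Nqo1* encodes a quinone reductase that uses NADH or NADPH. It was at 11.22, 10.68 and 11.15 in Wnt4hi and 8.37, 10.13 and 9.19 in Wnt4low. The highest Wnt4low array, replicate 3, was below the lowest Wnt4hi array, also replicate 3. The mean was 3.46-fold higher in Wnt4hi (log2 fold change 1.79, SE 0.45, unadjusted p = 0.00667, adjusted p = 0.207). It stayed past the unadjusted threshold without any 1 array (1.36 to 2.24), and missed it only in the authors' table of normalized values (1.26).

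*Hmox1*, the inducible heme oxygenase, had a wide spread in both populations (SD 1.74 in Wnt4hi and 1.42 in Wnt4low). Its values were 8.59, 7.96 and 11.24 in Wnt4hi and 9.73, 11.23 and 12.57 in Wnt4low. Replicate 4 was the highest array of each population, and Wnt4hi replicate 4 was level with Wnt4low replicate 3. The log2 fold change was -1.91 (95% interval -4.47 to 0.65, unadjusted p = 0.118, adjusted p = 0.629), and with 1 array left out it ran from -1.21 without Wnt4low replicate 4 (adjusted p = 0.858) and -1.26 without Wnt4hi replicate 3 (adjusted p = 0.879) to -2.90 without Wnt4hi replicate 4 (unadjusted p = 0.0179, adjusted p = 0.371). With the replicate number as a fixed term it was -2.30 (unadjusted p = 0.00572, adjusted p = 0.174). Macrophages are a known source of *Hmox1*, and both the leukocyte marker sums and the mean of *Hmox1* were lower in Wnt4hi. Wnt4low replicate 4 had the highest leukocyte sum of the 6 arrays (26985) and the highest *Hmox1*, whereas Wnt4hi replicate 4 had the lowest sum (11236) and the highest *Hmox1* of its population. The part of leukocytes in these values was not tested.

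**Figure D3:**
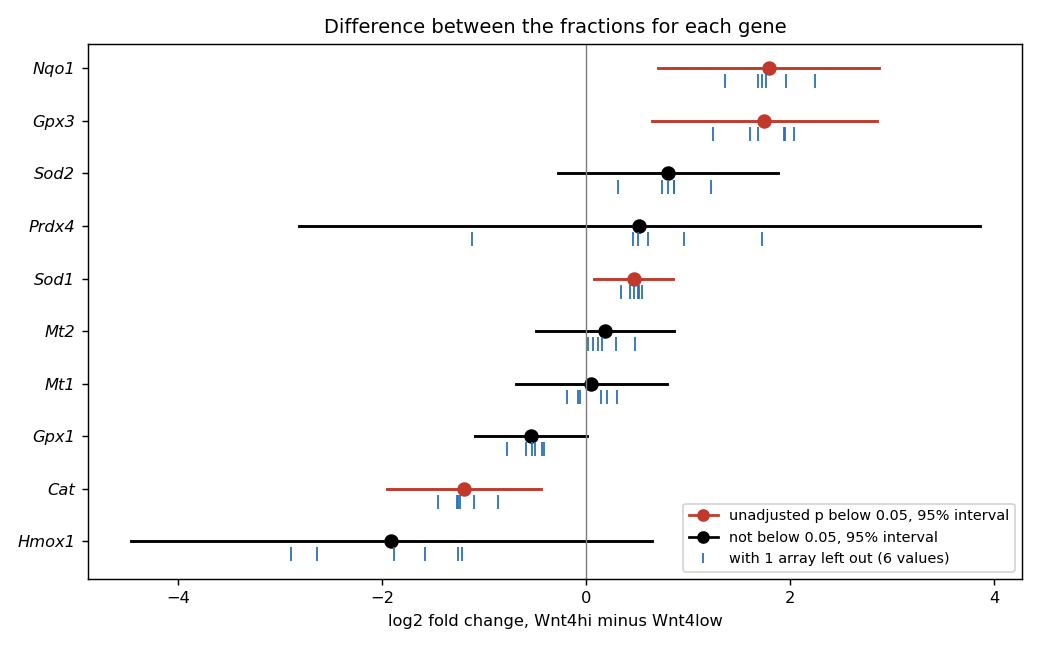
Log2 fold change (Wnt4hi minus Wnt4low) of each gene as a point with its 95% interval, in red where the unadjusted p was below 0.05, and below it in blue the 6 estimates with 1 array left out. *Nqo1*, *Gpx3* and *Sod1* lie above 0 and *Cat* below, *Prdx4* changes sign when 1 array is left out, and *Hmox1* has a wide interval that includes 0.

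Wnt4low replicate 1 was the lowest of the 6 arrays for *Mt1*, *Sod1*, *Sod2*, *Gpx3* and *Nqo1*. Over the 10 genes its median deviation from the mean of the 6 arrays was -0.40, against -0.12 and -0.03 for the other Wnt4low arrays and 0.05 to 0.29 for Wnt4hi. The same array had the highest endothelial marker sum, 73272, and the lowest β-cell and α-cell marker sums, 194793 and 13807. The part of this makeup in the differences was not tested. Without it 3 of the 10 genes passed the unadjusted threshold, *Cat*, *Gpx3* and *Nqo1*, beside 8.94% of all features in the same fit.

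The array patterns of *Mt1*, *Hmox1* and *Prdx4*, which did not follow the populations, were set against 16159 genes that were well above background on all 6 arrays. Closest to *Mt1* were *AA536875* (Pearson r = 0.988 over the 6 arrays), *Atl1* (0.970) and *Arsb* (0.964). *Hmox1* was nearest to *Mat2b* (0.994), *Tmem64* (0.989) and *Cox6c* (0.985), and *Prdx4* to *Clip1* (0.990), *Anxa7* (0.982) and *Top1mt* (0.980). The highest of 16159 correlations over 6 points is near 1 by choice, and these values describe the arrays only.

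The other genes of the pathway were 128 in 13 lists, of which 126 were measured. Of these 126, 13 were higher in Wnt4hi, 15 lower and 98 did not pass the unadjusted threshold, and 1 passed the adjusted one. The 15 include *Slc39a14*, whose signal was near background on all 6 arrays. For 8 of the 98 another probe of the gene passed the unadjusted threshold, lower for 6 and higher for 2. The higher count was 8 (16 lower) without Wnt4hi replicate 2 and 7 (17 lower) without Wnt4hi replicate 4. The shares past the unadjusted threshold, 10.3% and 11.9%, stand beside 5.06% and 5.53% of all features. The median log2 fold change was 0.02, near the 0.07 of all features. All features include more dim ones: 28882 of 45616 were well above background on all 6 arrays, against 114 of the 126 genes. With a filter on dim probes 12 of 117 pathway genes were higher and 13 lower. In that fit 12.8% of all features passed in either direction. Of the 28 genes past the threshold, 18 stayed past it whichever array was left out, and all 28 kept their direction in the settings where they were measured, which were 20 for 22 genes and 19 for 6. In the following, genes called higher or lower passed the unadjusted threshold, and parentheses give the log2 fold change and the adjusted p from limma.

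**Figure D4:**
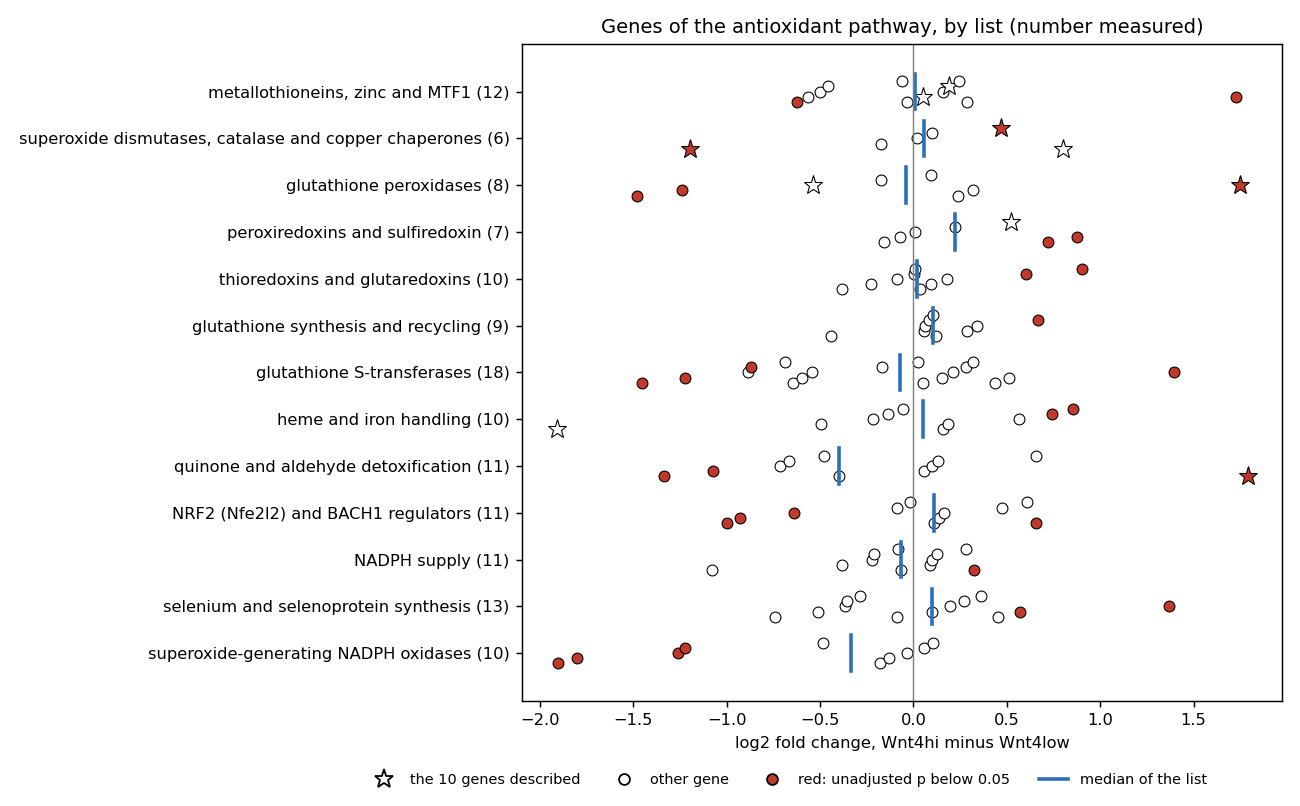
Log2 fold change (Wnt4hi minus Wnt4low) of the measured genes in the 13 pathway lists. Stars are the 10 genes described, circles the other genes, red fill an unadjusted p below 0.05, and blue lines the median of each list. The called genes lie on both sides of 0, and the 4 called genes among the 10 NADPH oxidase genes are all lower in Wnt4hi.

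Around the metallothioneins, *Slc30a8*, the zinc transporter of insulin granules and itself one of the β-cell markers, was higher in Wnt4hi (log2 fold change 1.73, unadjusted p = 0.0357, adjusted p = 0.416). Its Wnt4hi arrays gave 12.81, 12.91 and 12.89, above the Wnt4low arrays at 9.71, 12.42 and 11.30. It did not pass without Wnt4hi replicate 2, 3 or 4 or without Wnt4low replicate 4, and ranged from 1.01 to 2.36 with 1 array left out. *Mtf1*, the metal-sensing factor, had 0.29 (adjusted p = 0.948), and its other probes gave 0.58 and -0.72, the latter past the unadjusted threshold (adjusted p = 0.334). The zinc importer gene *Slc39a14* passed in the fit (-0.62), yet on all 6 arrays it was not well above background, and it has no measured difference.

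Among the glutathione peroxidases, *Gpx7* and *Gpx8*, both of the endoplasmic reticulum, were lower in Wnt4hi. *Gpx7* was the gene past the adjusted threshold (adjusted p = 0.0438). It was well above background on 0 Wnt4hi arrays and 2 Wnt4low arrays, which bounds it at least 1.21-fold lower in Wnt4hi, where the bound is set by the lowest signal well above background. With any 1 array left out its adjusted p was between 0.0802 and 0.154, and at most 9 features of the whole table passed, against 201 with all arrays. *Gpx8* fell by 1.24 on the log2 scale, from 11.26, 10.60 and 10.67 in Wnt4low to 9.86, 9.45 and 9.49 in Wnt4hi (unadjusted p = 0.00156, adjusted p = 0.107). *Gpx4*, which repairs lipid peroxides, had -0.17 (adjusted p = 0.901). All 12 mesenchymal markers, all 12 endothelial markers and 11 of 12 leukocyte markers had lower means in Wnt4hi. The part of these cells in the values of *Gpx7* and *Gpx8* was not tested.

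Of 6 other peroxiredoxin and sulfiredoxin genes, 2 were higher and 4 did not pass. *Prdx6* read 11.39, 11.48 and 11.55 in Wnt4hi and 10.70, 10.81 and 10.74 in Wnt4low, a tight separation (0.72, unadjusted p = 0.000966, adjusted p = 0.0891). Its other probe, well above background on all 6 arrays, gave 0.32 and did not pass (adjusted p = 0.555). *Srxn1*, the sulfiredoxin that restores oxidised peroxiredoxins, was higher by 0.88 (adjusted p = 0.338). The glutaredoxins *Glrx* (0.90, adjusted p = 0.156) and *Glrx5* (0.60, adjusted p = 0.460) and the regulatory subunit of glutathione synthesis, *Gclm* (0.66, adjusted p = 0.460), were higher too. Of these, *Srxn1*, *Glrx5* and *Gclm* were lost with 1 of several arrays left out, passing in 2, 1 and 1 of 6 such fits. The 8 other genes of glutathione synthesis and recycling and 8 of 10 thioredoxin and glutaredoxin genes did not pass. For *Txnip*, the thioredoxin inhibitor, the probes disagreed: the brighter one gave 0.03 and did not pass, while the other, well above background on all 6 arrays, gave -1.05 and passed the unadjusted threshold (adjusted p = 0.344).

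Of 18 glutathione S-transferases, 3 were lower and 1 higher in Wnt4hi. The lower genes were *Gstm1* (-1.22, adjusted p = 0.217), *Gstm2* (-1.46, adjusted p = 0.0575) and *Gstk1* (-0.87, adjusted p = 0.120). *Gstm1* and *Gstm2* are close paralogs whose probes may share signal. *Gstz1*, which also acts in tyrosine breakdown, was higher at 13.73, 13.76 and 13.44 against 12.12, 12.59 and 12.02 (1.39, adjusted p = 0.0631), with 1.54 at its other probe. In the list that holds *Nqo1*, *Ephx1* (epoxide hydrolase, -1.34) and *Cbr3* (carbonyl reductase, -1.07) were lower, so that the call of *Nqo1* was not shared by its list. *Ephx1* was well above background on 1 Wnt4hi array and 3 Wnt4low arrays.

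In the regulation of NRF2, both the activator gene and the gene of its competitor were lower. *Nfe2l2*, which encodes NRF2, read 7.97, 8.94 and 9.13 in Wnt4hi and 9.45, 9.40 and 10.18 in Wnt4low (a ratio of means of 0.501, unadjusted p = 0.0347, adjusted p = 0.411), and it did not pass without Wnt4hi replicate 2 (-0.64) or without Wnt4low replicate 4. *Bach1*, the heme-sensing repressor of *Hmox1*, was lower by 0.93 in log2 (adjusted p = 0.448) and passed in 2 of 6 fits with 1 array left out. *Fbxw11*, part of a ubiquitin ligase that targets NRF2, had -0.64 (adjusted p = 0.294). Of its other probes, the one well above background on all 6 arrays gave -0.56 and did not pass. *Mafg*, the small MAF partner of both factors, was higher (0.66, adjusted p = 0.189), and *Keap1*, the NRF2 inhibitor, had 0.13 (adjusted p = 0.946).

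In iron handling, the exporter *Slc40a1* (0.74, adjusted p = 0.392) and the importer *Slc11a2* (0.85, adjusted p = 0.219) were higher, and the remaining 7 genes beside *Hmox1* did not pass. Among these 7, other probes of *Hmox2* (-0.71, adjusted p = 0.434) and *Cp* (-1.36, adjusted p = 0.134) passed the unadjusted threshold as lower. That probe of *Cp* was well above background on 4 arrays only. The brightest *Cp* probe gave 0.19 and the rest -0.21 and -0.08, and none of these passed. *Slc40a1* passed only without one of the Wnt4low arrays, in 3 of 6 fits, and the other probe of *Slc11a2* that was well above background on all 6 arrays gave 0.41 and passed as well (adjusted p = 0.313). *Sepsecs*, which makes the selenocysteine used by glutathione peroxidases, was higher (1.37, adjusted p = 0.256, with 1.92 at its other probe), as were *Selenok* (0.57, adjusted p = 0.428) and, among 11 genes of NADPH supply, *Me3* (0.32, adjusted p = 0.466). The calls of *Selenok* and *Me3* were lost in most fits with 1 array left out, passing in 2 and 1 of 6.

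In the list of NADPH oxidases and their subunits, 4 of 10 genes were lower in Wnt4hi and 0 higher, beside 5.53% and 5.06% of all features. *Cybb*, the catalytic subunit of phagocytes, measured 7.89, 7.72 and 8.99 in Wnt4hi and 9.34, 9.36 and 9.58 in Wnt4low (-1.22, adjusted p = 0.262). *Cyba* (-1.80, adjusted p = 0.141), its membrane partner, and *Nox4* (-1.26, adjusted p = 0.271), a form that is always active, were lower as well. The other probe of *Cyba*, well above background on all 6 arrays, gave -0.64 and did not pass (adjusted p = 0.665). Both the size and the call of *Cyba* therefore depend on the probe. *Cybb* is used by leukocytes and *Nox4* by endothelial and mesenchymal cells, and the marker sums of all these cells were lower in Wnt4hi, but their part was not tested.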

How the data were processed

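Gene expression was measured in 6 samples of FACS-sorted P1 islet cells, grouped by the sample labels, with 1 array each, all on 1 slide and from 1 scan. For each array the authors deposited the intensity of every spot and of its local background (Agilent Feature Extraction, version 9.1 per the labels and 12.0.1.1 per the file headers), not normalized, and a processed intensity. A deposited table of log2 values, normalized by the authors, served as an alternative. Its column for Wnt4hi replicate 2 correlated at 0.271 with the scanner values of that array, against 0.843 to 0.872 for the others (genes centred), and it has no row for the probes of *Prdx4* and *Hmox1* used here.

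Median intensities were corrected in limma (version 3.58.1, R 4.3.3) by normexp with an offset of 50. Between 50 and 141 spots per array, flagged as outliers or not uniform, were dropped, 0 were saturated, and the log2 values were quantile normalized without control spots. Spots of a probe were averaged, and the probe with the highest mean stood for a gene. Of 27845 RefSeq-type probe names, 25126 matched the table of RefSeq genes (GRCm38.p6), used for names and promoters only. A linear model without covariates (lmFit, eBayes) was fitted to 45616 features, and p was adjusted over all of them by Benjamini-Hochberg, with the study's unadjusted threshold of 0.05 used as well. Median spots were 10.8 to 15.6 times brighter than background, and 70.5 to 79.5% of spots were well above background. The number of arrays limits the precision. Each array received RNA of pooled pups, and nothing says whether Wnt4hi and Wnt4low arrays of 1 number came from the same pool, so p-values measure the spread between these samples. Marker sums add linear normalized intensities. The calculation was tested on simulated data.

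The members, gene lists and rules were chosen with earlier results of these data known. Named genes are the 10 members, up to 4 called genes with the largest change of each other list, and *Nfe2l2*, *Keap1*, *Bach1*, *Mtf1*, *Slc30a8*, *Txnip* and *Gpx4*. *Nnt* and *Duox2* of the lists were not found. Values of 1 gene of the lists are not reported here. The largest correlations were ranked for *Mt1*, *Hmox1* and *Prdx4*. Delta-cell, acinar, ductal and Schwann markers were measured as well. At the unadjusted threshold 1, 1, 3 and 0 were higher and 2, 2, 1 and 2 lower of 4, 12, 9 and 7. Alternatives changed background correction, normalization, dim-probe and outlier filters, choice of probe, variance model, the values, a replicate block and each array in turn.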

Additional observations from a re-analysis of the deposited data

How the results depend on the processing

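Under 20 alternatives, *Cat* and *Gpx3* kept direction and call in all, *Nqo1* in all but the authors' table of normalized values, and *Sod1* its direction in all and its call in 13. Of the 10 genes, 2 passed the unadjusted threshold in the authors' table, where 8 were measured (12.3% of all features), and 3 to 6 with 1 array left out (8.94 to 11% of all features). *Mt1* reversed to -0.028 with the processed intensity, -0.088 with the mean over its probes and -0.23 in the authors' table, and ranged from -0.18 to 0.31 with 1 array left out. *Prdx4* ranged from -1.11 to 1.72 with 1 array left out. The cause was not tested. Replicates 3 and 4 occur in both populations, but the labels do not tie them to shared pools, and the deviations of same-numbered arrays correlated at -0.03 and 0.16, so the arrays were not taken as paired. With the replicate block as a fixed term, which leaves fewer arrays for the comparison, *Mt2* was -0.0057. *Prdx4* (-1.13, unadjusted p = 0.0265, adjusted p = 0.353) and *Hmox1* (-2.30, adjusted p = 0.174) passed the unadjusted threshold as lower, and *Sod1* did not pass (0.34, adjusted p = 0.872). In that fit 5 of the 10 genes passed the unadjusted threshold, beside 10.6% of all features, 7 of the 126 other pathway genes were higher and 17 lower, and 0 features the adjusted one. Of the other pathway genes, 13 higher and 15 lower became 7 and 13 with the methods' t-test and 8 and 13 (of 111) in the authors' table. The adjusted count over all features was 201, against 0 to 9 with 1 array left out, 509 with a filter on dim probes, 406 in the authors' table and 0 with the methods' t-test. With 3 arrays a population, an exact permutation test cannot give a two-sided p below 0.1. The share of higher calls was 47.8% in the main setting, 38.5% with cyclic loess and 54.2% with the methods' t-test.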
